A study of Homo sapiens with 6 samples.

Results

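Caveolae are small flask-shaped pits of the plasma membrane, and endothelial cells carry them in large numbers. The set described here is the protein coat that makes them, namely the caveolins CAV1 and CAV2, the cavins CAVIN1, CAVIN2 and CAVIN3, and the neck ATPase EHD2. All probe sets annotated to exactly 1 of these genes, under the current symbol or the older names PTRF, SDPR and PRKCDBP, were taken as members. This gave 14 probe sets of 6 genes, out of 54613 non-control probe sets and 19775 genes in all, and no probe set with several gene symbols named a member.

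The samples were human umbilical vein endothelial cells (HUVECs), primary cells grown in an endothelial medium with serum and growth factors, and transfected either with an siRNA that targets ANRIL, a long noncoding RNA, or with scrambled control siRNA. Each group had 3 Affymetrix Human Genome U133 Plus 2.0 arrays, 1 per transfected sample, so that all 6 arrays shared the cell type, the medium and the transfection reagent. A single siRNA duplex against ANRIL was given, and the comparison was made to find genes whose expression follows from loss of ANRIL. The time after transfection and the number of donors were not given in the sources used here, and p-values measure only the spread between these samples, which may be technical. Values are log2 intensities, and every difference is ANRIL siRNA minus control siRNA, so that a negative value means less signal with ANRIL siRNA. The number of arrays limits the precision throughout.

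The targeted transcript, listed as CDKN2B-AS1, had 1 probe set at the 9.39th percentile of mean signal, with values from 3.95 to 4.08 with control siRNA and from 3.69 to 4.05 with ANRIL siRNA. The groups overlapped there, and the array gave no check of the knockdown. All 10 endothelial markers looked up (among them PECAM1, CDH5, VWF and CLDN5) were bright, with means of 9.50 to 13.48 at the brightest probe set of each gene. Markers of other cells ranged from dim to bright. The 7 fibroblast markers lay at percentiles of 3.52 (LUM) to 87.8 (COL1A1) of all probe sets, the 5 adipocyte markers at 4.76 (ADIPOQ) to 90.2 (FABP4) and the 8 smooth muscle markers at 43.0 (LMOD1) to 92.9 (ACTA2). The 5 leukocyte markers lay at 14.7 (PTPRC) to 71.6 (CD3E) and the 4 epithelial markers at 16.3 (CDH1) to 60.1 (KRT5).

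In a caveola, caveolins sit in the inner leaflet of the membrane as large oligomers that bind cholesterol. CAV1 is needed for caveolae to form outside muscle, and CAV2 joins it in mixed oligomers and needs CAV1 to leave the Golgi. Cavins assemble on this scaffold from the cytoplasm. CAVIN1 is needed for the coat, CAVIN2 and CAVIN3 join through it, and EHD2 forms a ring at the neck that holds the pit at the surface. In endothelium the structure takes part in uptake and transcytosis, in buffering of membrane tension and in restraint of the nitric oxide synthase NOS3, which CAV1 binds.

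CAV2 and CAV1 are neighbours on chromosome 7, on the same strand. The gene starts of the members with a promoter entry are shown because these genes share a membrane coat and differ in how their signal compared between the groups. Each run below is a window of 300 bases around 1 start of the gene in RefSeq on GRCh38.p14, 5′ to 3′ on the strand of the gene, with capitals for GGGCGG (the GC box of SP and KLF factors) and GGAATG (a TEAD site) on either strand. TATAAA, the TATA box, was searched too and was in none of these windows.
CAV1, chr7:116524759-116525058, plus strand: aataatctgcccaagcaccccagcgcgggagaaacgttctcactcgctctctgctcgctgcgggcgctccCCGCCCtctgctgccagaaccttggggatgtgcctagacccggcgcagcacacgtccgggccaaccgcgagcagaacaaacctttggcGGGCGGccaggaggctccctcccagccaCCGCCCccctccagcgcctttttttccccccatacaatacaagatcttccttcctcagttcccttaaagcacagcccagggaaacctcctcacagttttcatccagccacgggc
CAV2, chr7:116499488-116499787, plus strand: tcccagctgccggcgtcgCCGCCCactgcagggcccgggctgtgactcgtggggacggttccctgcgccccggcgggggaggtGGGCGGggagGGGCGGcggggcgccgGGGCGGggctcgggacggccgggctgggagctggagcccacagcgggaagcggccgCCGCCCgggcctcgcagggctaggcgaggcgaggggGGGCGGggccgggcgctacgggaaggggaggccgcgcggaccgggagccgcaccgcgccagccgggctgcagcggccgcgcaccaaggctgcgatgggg
CAVIN2, chr2:191847039-191847338, minus strand: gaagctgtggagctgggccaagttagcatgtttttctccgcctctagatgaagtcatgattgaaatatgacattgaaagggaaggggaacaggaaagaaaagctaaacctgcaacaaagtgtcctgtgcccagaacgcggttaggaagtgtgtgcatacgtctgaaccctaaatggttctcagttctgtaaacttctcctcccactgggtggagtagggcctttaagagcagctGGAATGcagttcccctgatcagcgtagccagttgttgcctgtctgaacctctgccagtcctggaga
EHD2, chr19:47713172-47713471, plus strand: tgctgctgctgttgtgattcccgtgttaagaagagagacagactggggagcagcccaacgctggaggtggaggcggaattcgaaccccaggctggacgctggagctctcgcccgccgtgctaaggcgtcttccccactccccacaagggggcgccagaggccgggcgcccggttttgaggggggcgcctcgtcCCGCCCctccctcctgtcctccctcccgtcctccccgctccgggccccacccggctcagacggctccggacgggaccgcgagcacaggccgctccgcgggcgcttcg
The CAV2 window had 82.7% G and C and 6 GC boxes, the CAV1 window 62.3% and 3 boxes, and the EHD2 window 71% and 1 box. CAV1 and CAV2 also had other starts, and the first by position is shown. Windows at the others had 61.7% and 3 boxes or 71% and 2 boxes for CAV1, and 71% and 4 boxes for CAV2. The CAVIN2 window had the lowest share of G and C among those shown, at 49.3%, with no GC box and 1 GGAATG, 16 bases before the start. None of these motifs overlapped another in the windows shown. Over all 35116 promoter windows of the same length, 45% held a GC box, 14% GGAATG and 11.5% TATAAA, so that a match is common and is given as a description of the letters. Their median share of G and C was 58.7%, with 39% at the 10th and 74.7% at the 90th percentile. Of the windows shown, only that of CAV2 lay outside this range. No promoter entry was matched for CAVIN1 and CAVIN3.

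CAV1, CAV2 and CAVIN2 had less signal with ANRIL siRNA, by 0.22 to 0.25 on the log2 scale at their brightest probe sets, which is 1.17-fold to 1.19-fold, and the 3 arrays of one group did not overlap with those of the other. CAVIN1, CAVIN3 and EHD2 differed by less than 0.10 at theirs, and the groups overlapped. The dimmer 2 probe sets of CAVIN1, however, differed by −0.24 and −0.37 without overlap. None of these differences passed the test over all features. By limma with Benjamini-Hochberg adjustment 0 of 14 member probe sets were called at an adjusted p of 0.05, where 0% of all probe sets were called. At an unadjusted p under 0.05 there were 8 member probe sets, all lower, where 15.1% of all probe sets were reached in either direction and 6.14% were lower. The groups did not overlap at 8 of 14 member probe sets, all with ANRIL siRNA lower. Over all probe sets 21% did not overlap, and 9.97% did so with ANRIL siRNA lower. That last share depended on brightness, and it was 34.8% among the brightest decile of the array, where 10 of the members lie, and 24.9% in the decile below it, where another 2 lie. In bulk samples such as these, fewer cells of a type and less RNA per cell cannot be told apart.

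**Figure D1:**
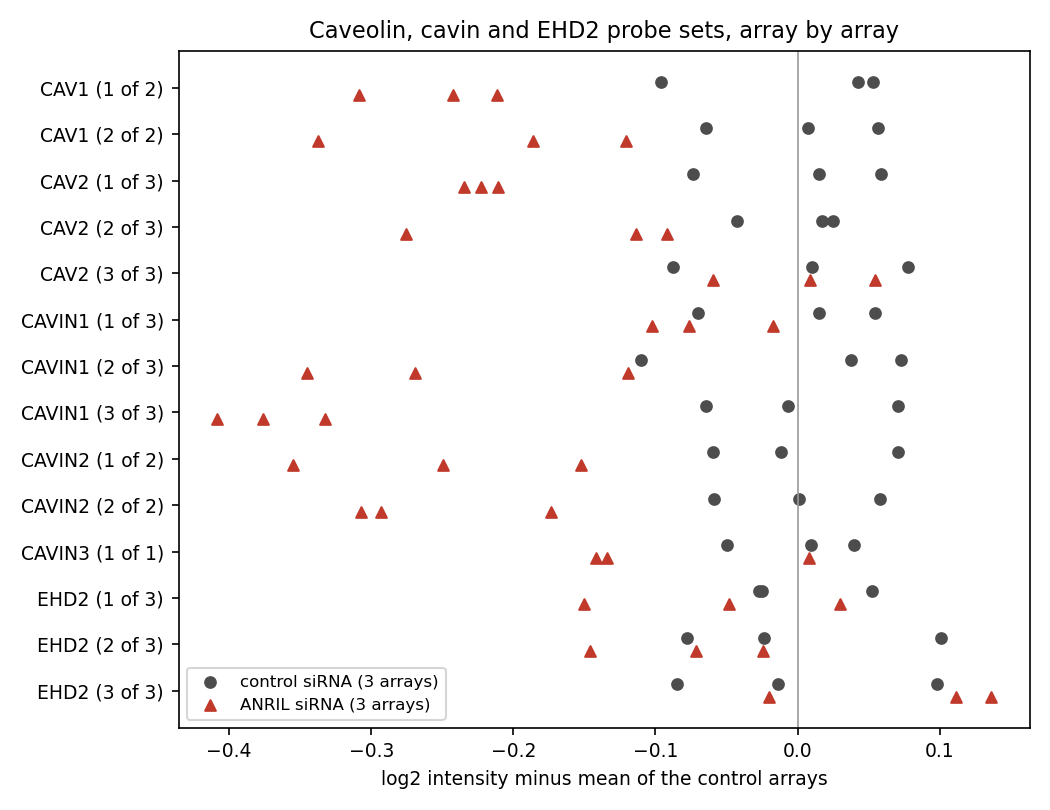
Log2 intensity of each member probe set on each array minus the mean of the 3 control arrays (horizontal axis), with probe sets in rows numbered within each gene from the brightest, control siRNA arrays as dots and ANRIL siRNA arrays as triangles. The triangles lie left of all 3 dots in 8 of 14 rows, namely both rows of CAV1 and of CAVIN2, the brighter 2 of CAV2 and the dimmer 2 of CAVIN1, and mix with the dots in the rows of CAVIN3 and EHD2.

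CAV1, the scaffold protein of the coat, was read by 2 probe sets, at percentiles of 99.1 and 98.4 of mean signal. The brighter read 13.22, 13.21 and 13.07 on the control arrays, against 12.95, 12.92 and 12.86 after ANRIL siRNA. It differed by −0.25 ± 0.07 (limma adjusted p = 0.223, 95% interval −0.41 to −0.10, error as SE with 3 arrays a group). The highest ANRIL siRNA array lay below the lowest control array, and control replicate 3 was the low one of its group. The dimmer read 12.53, 12.48 and 12.41 on the control arrays, against 12.29, 12.14 and 12.36. Its difference was −0.21 ± 0.08 (limma adjusted p = 0.26). Here too the groups did not overlap, and ANRIL siRNA replicate 3 came nearest to the control arrays. With either probe set the sign held under the alternatives that could move it, namely other scalings, array weights and each array left out. The differences ran from −0.30 to −0.18 for the brighter and from −0.265 to −0.136 for the dimmer. Changes of prior, the replicate block and the signal filter leave a difference as it is.

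CAV2, the partner of CAV1 in mixed oligomers, was read by 3 probe sets that did not behave alike. The brightest read 12.80, 12.75 and 12.66 on the control arrays, against 12.50, 12.53 and 12.51, a difference of −0.22 ± 0.07 (limma adjusted p = 0.229). The ANRIL siRNA arrays were close together here, with an SD of 0.01 against 0.07 in the control arrays, and all 3 lay below the control arrays. The next read 11.32, 11.32 and 11.26, against 11.19, 11.21 and 11.02, a difference of −0.16 ± 0.07 (limma adjusted p = 0.331), again without overlap. The dimmest probe set, at the middle of the array in signal, gave 6.13, 6.29 and 6.22 against 6.22, 6.27 and 6.16. Its difference was 0.00 ± 0.07 (95% interval −0.16 to 0.16), and the groups were mixed. The transcripts behind each of them were not analysed here.

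Among the cavins, CAVIN2, which binds phosphatidylserine and shapes the membrane around the pit, gave like differences at both probe sets. The brighter read 11.78, 11.70 and 11.65 on the control arrays, against 11.46, 11.35 and 11.56, a difference of −0.25 ± 0.07 (limma adjusted p = 0.231). The dimmer gave 9.92, 9.98 and 9.86 against 9.63, 9.62 and 9.75, a difference of −0.26 ± 0.07 (limma adjusted p = 0.223). In both, all ANRIL siRNA arrays lay below all control arrays, and ANRIL siRNA replicate 3 was the nearest to them.

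CAVIN1, without which the coat does not assemble, gave different answers at its 3 probe sets. The brightest read 12.85, 12.97 and 12.94 on the control arrays, against 12.84, 12.82 and 12.90, and the groups overlapped (−0.07 ± 0.07, 95% interval −0.21 to 0.08, limma adjusted p = 0.661). The second gave 11.18, 11.33 and 11.37 against 11.02, 10.95 and 11.17, with no overlap (−0.24 ± 0.08, limma adjusted p = 0.248). Control replicate 1 lay just above ANRIL siRNA replicate 3 there. The dimmest probe set had the difference of largest size among the 14 members, with 9.88, 9.80 and 9.75 in the control arrays and 9.48, 9.43 and 9.40 with ANRIL siRNA. That difference was −0.37 ± 0.07 (1.29-fold lower, 95% interval −0.52 to −0.22, limma adjusted p = 0.22).

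The disagreement within CAVIN1 was itself measured, a comparison chosen after its values had been seen. The signal of the dimmest probe set minus that of the brightest was −2.97, −3.17 and −3.19 in the control arrays and −3.37, −3.38 and −3.50 with ANRIL siRNA. The gap differed between the groups by −0.31 without overlap (two-sided exact permutation p = 0.1, the smallest that 3 against 3 arrays can give, or 0.15 after Benjamini-Hochberg adjustment over the 3 pairs of probe sets). The gap of the second to the brightest differed by −0.18 (exact permutation p = 0.1), and that of the dimmest to the second by −0.13 with overlap (exact permutation p = 0.5). The array also holds controls that read the 3′ and the 5′ end of 1 transcript. The 3′ minus 5′ signal of GAPDH was −0.01, 0.01 and −0.01 in the control arrays and 0.05, 0.09 and 0.04 with ANRIL siRNA, and that of ACTB was 0.545 ± 0.05 and 0.72 ± 0.13 (SD, n = 3 per group) with overlap. Their part in the differences between probe sets was not tested.

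CAVIN3, a cavin first described as a binding protein of protein kinase C delta, had 1 probe set with values of 10.25 to 10.34 in the control arrays and 10.16 to 10.31 with ANRIL siRNA. It differed by −0.09 ± 0.07 (limma adjusted p = 0.561), with ANRIL siRNA replicate 2 inside the control range. EHD2 was read by 3 probe sets, which differed by −0.06 ± 0.07, −0.08 ± 0.07 and 0.08 ± 0.08 from the brightest to the dimmest (limma adjusted p = 0.73, 0.616 and 0.653), and the groups overlapped in each. At the brightest, values ran from 10.80 to 10.88 with control siRNA and from 10.67 to 10.85 with ANRIL siRNA. For the brightest probe sets the 95% intervals reached −0.24 for CAVIN3 and −0.21 for EHD2. Both overlapped that of the brightest probe set of CAV2, from −0.37 to −0.08. Differences between genes were not tested.

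Bright probe sets in general had less signal with ANRIL siRNA. The median difference was −0.08 in the brightest decile of the array and −0.07 in the next, with 87.1% and 79.3% of probe sets below 0, against a median of 0.01 over all probe sets. The members differed in where they lay against that background. The differences of CAVIN1 at its brightest probe set, CAVIN3 and the 2 brighter probe sets of EHD2, from −0.09 to −0.06, lay near the median of the brightest decile. Of its probe sets 2.54% had a lower value than the brighter of CAV1, 5.14% than the other, 4.60% than the brightest of CAV2, 2.65% than the brighter of CAVIN2 and 3.04% than the second of CAVIN1. In the decile below, 3.85% lay lower than the dimmer of CAVIN2 and 0.897% lower than the dimmest of CAVIN1. The second CAV2 probe set was less far out, with 14.9% lower. These shares describe the position of each value and are not tests. By gene, at the brightest probe set, all 6 members lay below 0, where 51.4% of all genes did. At 3 of 6 the groups did not overlap, where 23.4% of genes did not in either direction and 12.8% with ANRIL siRNA lower. Over the 14 member probe sets the median difference was −0.19 and 12 lay below 0, where 46.1% of all probe sets did.

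**Figure D2:**
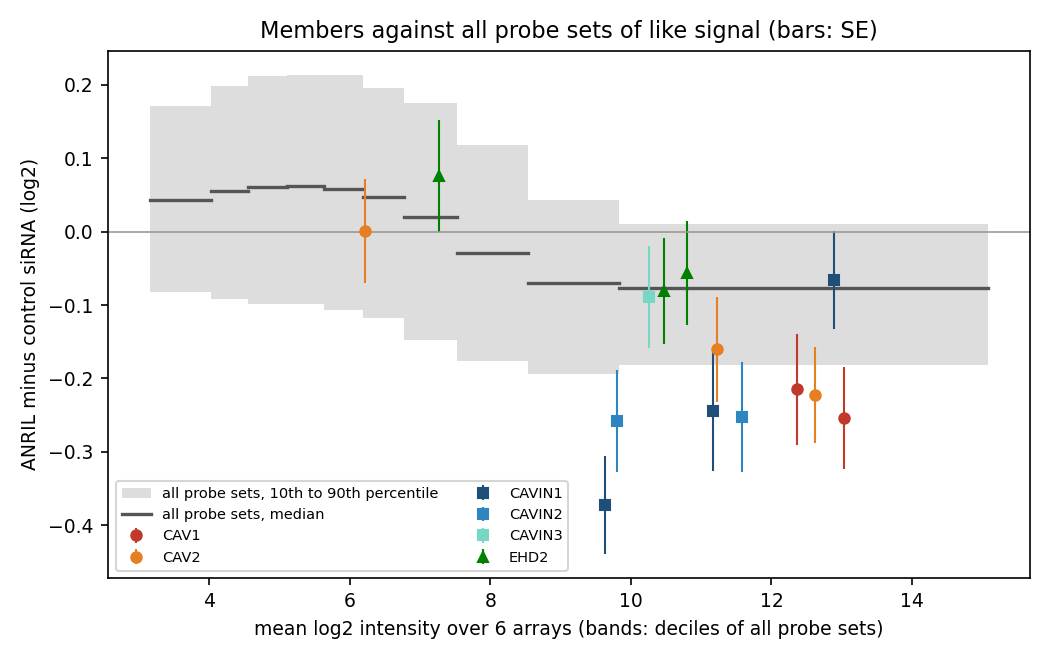
Difference between ANRIL siRNA and control siRNA (log2, vertical axis, bars are the SE) against the mean log2 intensity over 6 arrays, with the median and the 10th to 90th percentile of all probe sets in each decile of signal in grey. The median is above 0 in the dimmer deciles, at up to 0.06, and −0.08 in the brightest, and 7 member probe sets of CAV1, CAV2, CAVIN1 and CAVIN2 lie below its lower edge while CAVIN3, EHD2, the brightest of CAVIN1 and the second and dimmest of CAV2 lie within it.

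Scalings that take this trend out brought the 12 brighter members toward 0. Cyclic loess brought the median of the brightest decile from −0.08 to 0.00, and repeated quantile normalization did the same. The brighter CAV1 probe set was then at −0.18 ± 0.06 and −0.19 ± 0.06, that of CAVIN2 at −0.17 ± 0.08 and −0.16 ± 0.08, and the dimmest of CAVIN1 at −0.30 ± 0.07 and −0.29 ± 0.06. The brightest of CAV2, which had been at −0.22, was at −0.14 ± 0.06 and −0.15 ± 0.06. CAVIN3 and the 2 brighter EHD2 probe sets lay between −0.01 and 0.04. The groups did not overlap, with ANRIL siRNA lower, at 4 of 14 member probe sets after either scaling, 1 each of CAV1, CAV2, CAVIN1 and CAVIN2. By cyclic loess this held for 8.98% of all probe sets and 12.5% of the brightest decile. By repeated quantile normalization the shares were 8.32% and 11.9%. No member passed after either scaling with a constant prior (smallest limma adjusted p = 0.329 and 0.332).

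**Figure D3:**
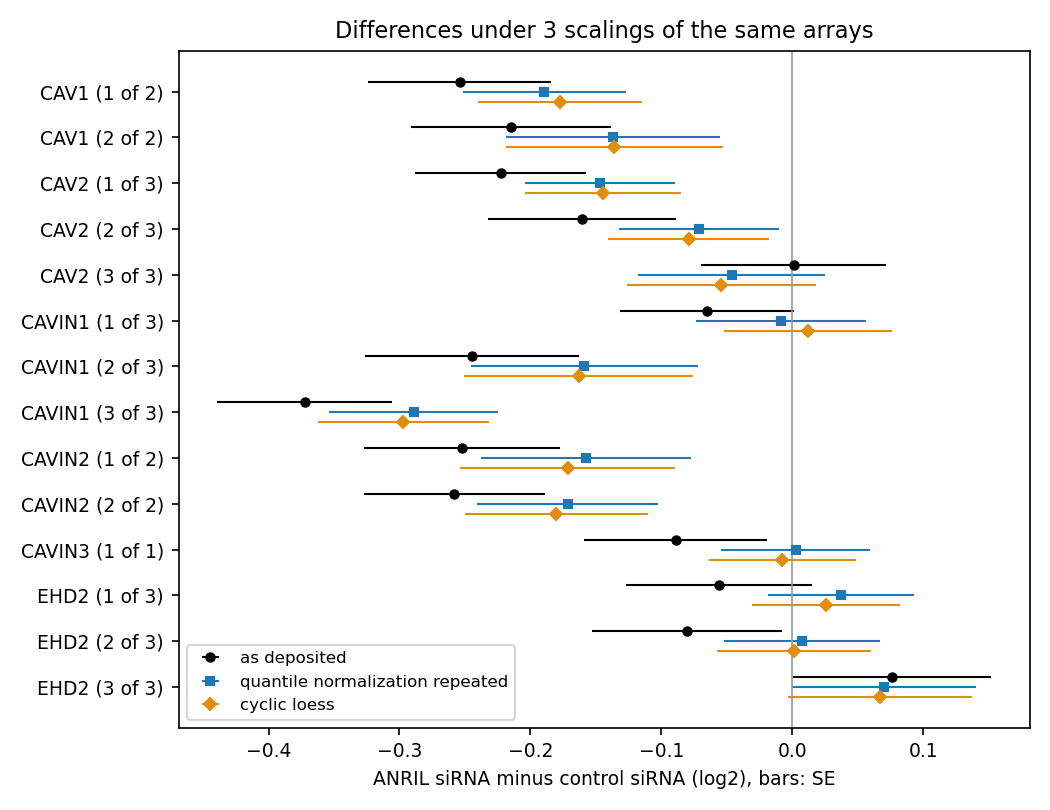
Difference between ANRIL siRNA and control siRNA (log2, bars are the SE) for each member probe set, in rows as before, from the deposited values and from those scaled again by quantile normalization or cyclic loess. Both scalings move every row to the right except the dimmest of CAV2 and of EHD2, and those of CAV1, CAVIN2 and the dimmer 2 of CAVIN1 stay below −0.10 while CAVIN3 and the brighter 2 of EHD2 come to within 0.04 of 0.

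The calls turned on how the spread was modelled. With a prior variance that follows the signal, where bright probe sets here varied less (median residual SD 0.0586 in the brightest decile and 0.102 in the dimmest), limma called 4 of 14 member probe sets lower, where 0.63% of all probe sets were called. They were the brighter of CAV1 (adjusted p = 0.0141), the brightest of CAV2 (0.0191), the dimmest of CAVIN1 (0.0106) and the brighter of CAVIN2 (0.0431). Of the 344 probe sets called in all, 315 were lower. The shares of all probe sets and genes given here mix bright and dim ones. Those among features as bright as the members were not computed. Without the robust option of the prior that follows the signal 3 members were called, CAVIN2 being lost (adjusted p = 0.0502), where 0.438% of all probe sets were. With the robust option the count of 4 dropped to 0 when control replicate 1, control replicate 2 or ANRIL siRNA replicate 1 was left out, where 0.0696%, 0.00732% and 0.0696% of all probe sets were called. It was 2 when ANRIL siRNA replicate 3 was left out, 4 for ANRIL siRNA replicate 2 and 5 for control replicate 3, where 0.176%, 1.62% and 0.824% of all probe sets were called. With the robust prior after cyclic loess 1 member passed, the dimmest of CAVIN1 (adjusted p = 0.0461), where 0.143% of all probe sets were called. With 1 probe set per gene, the brightest, the prior that follows the signal called CAV1, CAV2 and CAVIN2 lower (adjusted p = 0.00137, 0.00361 and 0.0116), where 2.74% of 19775 genes were called (2.64% without the robust option, with the same 3 members), and after cyclic loess CAV1 alone (adjusted p = 0.034), where 0.678% were.

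The other genes of caveolae were taken from lists, each gene by its brightest probe set, and in the constant-prior fit 0 of these genes passed, where 0% of all 19775 genes were called. Partners of the coat at the neck and the muscle relatives of the members showed little difference. Of 9 measured, 6 were lower and 3 higher, with a median of −0.0049 beside −0.0046 over all genes, and 0 had an unadjusted p under 0.05. The EHD2 relatives EHD1 (−0.12 ± 0.07) and EHD4 (−0.11 ± 0.06) were the lowest, both with an adjusted p of 0.353 or more. CAV3, the caveolin of muscle, differed by 0.11 ± 0.07, and PACSIN3, an F-BAR protein, by −0.02 ± 0.09. Their median was −0.03 by cyclic loess and −0.02 by repeated quantile normalization.

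Proteins that reside or are regulated in endothelial caveolae were lower at 11 of 14 genes, with a median of −0.05 and 5 at an unadjusted p under 0.05, where 18% of all genes were reached. The TGF-beta receptor TGFBR2 gave 12.55 ± 0.04 with ANRIL siRNA and 12.77 ± 0.07 with control siRNA (SD, n = 3 per group), a difference of −0.22 ± 0.06 (limma adjusted p = 0.164). The calcium channel TRPV4 differed by −0.30 ± 0.10 with overlapping groups, NOS3 by −0.23 ± 0.08 and the calcium pump ATP2B4 by −0.17 ± 0.06 (limma adjusted p = 0.176, 0.193 and 0.209). NOS3 was lower at 1 of its 2 probe sets. TGFBR2 passed with the prior that follows the signal (adjusted p = 0.00488), where 2.74% of all genes were called. With that prior after cyclic loess its difference was −0.14 and 0 of the 14 passed (smallest adjusted p = 0.054), where 0.678% of all genes were called. Lower genes numbered 8 of 14 by cyclic loess and 7 by repeated quantile normalization.

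Genes of uptake and transcytosis were lower at 10 of 13, with a median of −0.07 that turned positive, at 0.01 by cyclic loess and 0.02 by repeated quantile normalization. The kinases YES1 (−0.15 ± 0.07) and FYN (−0.14 ± 0.07), the SNARE gene VAMP2 (0.12 ± 0.06) and the scaffold ITSN2 (−0.12 ± 0.07) had the smallest p-values, and the smallest limma adjusted p was 0.278. Flotillins and other proteins of membrane rafts outside caveolae were lower at 7 of 8, with a median of −0.03 that became 0.03 and 0.02 by the same scalings. FLOT2 differed by −0.15 ± 0.06, ERLIN2 by −0.06 ± 0.06, CD59 by −0.03 ± 0.06 and ERLIN1 by −0.03 ± 0.06, and of these FLOT2 alone kept its sign under each scaling.

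**Figure D4:**
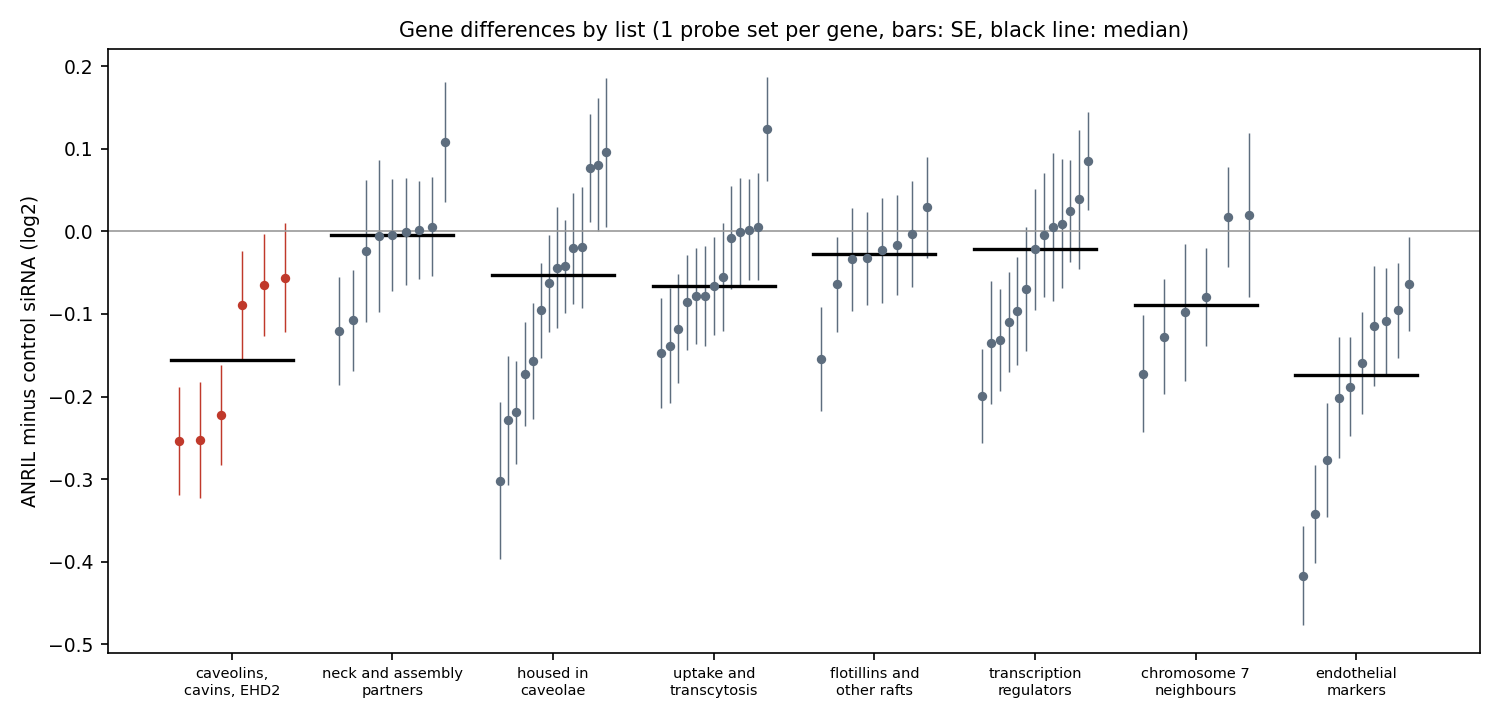
Difference between ANRIL siRNA and control siRNA (log2, vertical axis) of each gene at its brightest probe set, by list, with the SE as bars and a black line at the median of the list. The 6 caveola coat genes have a median of −0.16, near that of the 10 endothelial markers at −0.17, while the medians of the lists of partners, housed proteins, uptake genes, rafts and regulators lie between −0.07 and −0.0049 and that of the chromosome 7 neighbours at −0.09. The lists are not matched for brightness. Coat genes lie at percentiles of 92.4 to 99.1 of mean signal and endothelial markers at 87.9 to 99.4. Partners reach down to 23.8 and housed proteins to 21.2.

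Of 13 transcription regulators named for genes of the caveola, 8 were lower, with a median of −0.02. YAP1, a co-activator of TEAD factors, differed by −0.20 ± 0.06 at its brightest probe set, was lower at all 3 probe sets and did not pass (limma adjusted p = 0.166). KLF2 differed by −0.13 ± 0.06, the GC box factor SP1 by −0.11 ± 0.06 and FOXO1 by −0.13 ± 0.07. KLF2 was lower at 1 of its 2 probe sets, SP1 at 3 of 4 and FOXO1 at 3 of 3. The median was 0.01 by cyclic loess and −0.02 by repeated quantile normalization. Among the genes beside CAV2 and CAV1 on chromosome 7, 4 of 6 were lower, with a median of −0.09 that was −0.03 by either scaling. MET, the hepatocyte growth factor receptor, differed by −0.17 ± 0.07 with overlapping groups, TFEC by −0.13 ± 0.07, MDFIC by −0.10 ± 0.08 and CAPZA2 by −0.08 ± 0.06, which turned to 0.0011 by repeated quantile normalization. The groups overlapped at all 6 of these genes. MET and MDFIC were each lower at 2 of their 4 probe sets, and TFEC and CAPZA2 each at 3 of 3.

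Endothelial markers were lower at all 10 genes, with a median of −0.17, 9 of them after cyclic loess and 8 when quantile normalization was repeated. The mean log2 level over the 10 markers was 11.49 to 11.56 in the control arrays and 11.28 to 11.37 with ANRIL siRNA, without overlap. These markers lay at percentiles of 87.9 to 99.4 of mean signal. In the brightest decile 87.1% of all probe sets were below 0, and 79.3% in the next. The median of the 10 was −0.10 after cyclic loess. Among genes of smooth muscle, which also carries caveolae and whose list shares CAV3 with that of the partners, ACTA2 differed by −0.26 ± 0.06 and TAGLN by −0.22 ± 0.07, both without overlap, while 5 of 8 differed in the other direction. The mean level of those 8 was 7.55 to 7.66 in the control arrays and 7.60 to 7.63 with ANRIL siRNA. Fibroblast markers had mean levels of 6.36 to 6.41 and 6.33 to 6.38, and adipocyte markers of 6.32 to 6.48 and 6.36 to 6.42, so that both overlapped. Epithelial markers overlapped too, at 5.425 to 5.61 and 5.57 to 5.62, with 1 of 4 lower and 3 higher. The mean level of the 5 leukocyte markers was 5.67 to 5.72 in the control arrays and 5.74 to 5.92 with ANRIL siRNA, without overlap. Of these, 4 were higher, CD3E by 0.22 ± 0.08, and PTPRC differed by −0.07 ± 0.09. Of the 5, 3 lay below the median signal, where probe sets in general were higher, with medians of 0.04 to 0.06 by decile. The median of the 5 leukocyte markers was 0.18 as deposited and 0.12 after cyclic loess. The part of these shifts in the differences of the caveola genes was not tested.

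The genes whose values ran most like those of the caveolins over the 6 arrays were found among 13020 genes above the median signal, as a description. Both groups enter these correlations, so that any gene with the same step between groups scores high. For the brightest CAV1 probe set they were ZNF600 (Pearson r = 0.999, difference −0.24), the ETS factor ELK3 (0.997, −0.30), MINPP1 (0.995, −0.15), the cyclin CCND2 (0.994, −0.16) and NREP (0.994, −0.275). For that of CAV2 they were the junction scaffold MPDZ (0.994, −0.19), NBPF3 (0.994, −0.27), GNPTAB (0.993, −0.17), UFM1 (0.993, −0.17) and ZNF512B (0.992, −0.14). None of these 10 genes passed (limma adjusted p from 0.147 to 0.257).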

How the data were processed

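Total RNA of 6 HUVEC samples was hybridised to 1-colour Affymetrix arrays. Per the submitters' processing notes the authors used RMA, the affy package and limma, and the deposited values are log2 intensities per probe set (array medians 6.14 to 6.23). RMA corrects background, quantile-normalizes and summarises probes. Versions and any filter were not given in the sources used here.

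After removal of 62 control probe sets the other 54613 entered lmFit and eBayes (limma 3.58.1, R 4.3.3; constant prior; two-sided), with Benjamini-Hochberg adjustment over all probe sets (or 19775 genes) and a threshold of 0.05. Gene names came from the platform annotation, updated through Entrez identifiers in the RefSeq table of GRCh38.p14. Of them 41091 had 1 symbol, 1801 several and 11721 none. A gene is represented by its probe set of highest mean. The fit was tested on simulated data, where it called 64% of differences of 1.5-fold and 91% of those of 2-fold, with 3 false calls. The simulated noise was independent between probe sets and held no shift with brightness, unlike these data. These figures therefore check the code and do not measure its power or false calls here. Smaller differences, such as those of the members, were not simulated. The members, lists, tests and alternatives were chosen with earlier results of these data known. Named were all members, the 4 genes of smallest p in each list of caveola genes, regulators or neighbours, and the 5 genes most correlated with CAV1 and with CAV2. Cell type markers are given by range and count, and those named were chosen after their values were seen. Alternatives were other scalings, priors, array weights, a signal filter, a replicate block, other probe set rules and each array left out; cyclic loess with the prior that follows the signal, that prior without robust estimation, its leave-one-out counts and the overlap counts by scaling were added after seeing the data.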

Additional observations from a re-analysis of the deposited data

How the results depend on the processing

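The differences of CAV1, CAVIN2, the brighter probe sets of CAV2 and the dimmer of CAVIN1 were negative under every alternative run. Among these, changes of prior, the replicate block and the signal filter could not change a difference. The runs with 1 array left out share most of their arrays. With the prior that follows the signal 4 member probe sets and 344 of all were called, without its robust option 3 and 239, and with it after cyclic loess 1 and 78. Leaving out 1 array with that prior gave 0 to 5 members, beside 4 to 885 (0.00732% to 1.62%) of all probe sets. With the constant prior 0 members passed in each alternative, while over all probe sets 4 were called with arrays centred on their medians and 1 above the median signal only. Of the proteins of endothelial caveolae 1 gene passed with the trended prior with its robust option (2.74% of all genes called) and 1 without it (2.64%), and 0 with it after cyclic loess (0.678%). The median of the member probe sets was −0.10 after repeated quantile normalization, −0.11 after cyclic loess and −0.24 with centred arrays. Centring shifts the median of all probe sets from 0.01 to −0.04. Non-overlapping members numbered 4 after either of the first pair.

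Small differences changed sign. The dimmest CAV2 probe set was at −0.0026 with array weights, −0.046, −0.049 and −0.054 after repeated quantile normalization, centring and cyclic loess, and −0.043 to 0.040 with 1 array left out. After cyclic loess the brightest of CAVIN1 was at 0.012 and the brighter 2 of EHD2 at 0.026 and 0.0011. After repeated quantile normalization CAVIN3 was at 0.0026 and these EHD2 probe sets at 0.037 and 0.0074. With each gene as the mean of its probe sets CAV1 was at −0.23, CAV2 at −0.13, CAVIN1 at −0.23, CAVIN2 at −0.26 and EHD2 at −0.02. The cause of these moves was not tested beyond the scaling itself.

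The labels do not say whether arrays that share a replicate number were paired. Deviations of same-numbered arrays from their group means correlated at 0.06, 0.14 and −0.04 over probe sets. Those of arrays with unlike numbers correlated at −0.18 to 0.14. Deviations from a mean of 3 arrays depend on each other, so these values cannot decide on a pairing. With the replicate block 0 members passed, and the smallest adjusted p among them was 0.261.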
